A study of Mus musculus with 6 samples.

Results

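The genes that write, copy, remove and protect DNA methylation were compared between haematopoietic stem cells (HSCs) labelled Irgm1-/- and wild-type HSCs. They are the methyltransferases Dnmt1, Dnmt3a and Dnmt3b, the hemimethylation readers Uhrf1 and Uhrf2, the dioxygenases Tet1, Tet2 and Tet3, and the imprint protectors Zfp57 and Trim28. All probe sets to which the platform annotation gave only 1 of these symbols were taken, which were 24 of the 45101 probe sets on the array, for 10 genes. Each of 6 Affymetrix arrays held RNA of side population cells from bone marrow, sorted with Sca-1, c-kit and lineage staining, amplified linearly over repeated rounds of T7 transcription. Of these, 3 arrays came from Irgm1-/- (Lrg-47-/-) mice, which lack an interferon-induced GTPase, and 3 from wild-type mice. All mice are labelled C57BL/6, aged 8 to 12 weeks and kept free of specific pathogens. The labels do not say whether the arrays of a group came from separate mice, so p-values measure the spread between these arrays, which may be technical.

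DNA methylation in mammals sits mostly on CpG sites. DNMT3A and DNMT3B set it on unmethylated DNA, and DNMT1 copies it to the new strand after replication, brought there by UHRF1, which binds hemimethylated CpG. TET enzymes oxidise 5-methylcytosine and so start its removal. In mouse HSCs, Dnmt3a and Tet2 are known for restraining self-renewal, and Dnmt1 is needed for self-renewal and for the balance between myeloid and lymphoid output. ZFP57 binds methylated imprinting control regions and recruits TRIM28 (KAP1), which keeps the methylation there through cell division.

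Values are GCRMA expression values on the log2 scale, so a difference of 1 is a 2-fold change. Only probe sets brighter than the array median on 3 or more of the 6 arrays entered the test, and a set was called when its limma p-value, adjusted over all 22580 tested probe sets, was under 0.05. By this filter 22 of the 24 member probe sets were tested, for 9 of the 10 genes. The array medians lay between 3.67 and 3.73. The gap between 3' and 5' actin controls, a sign of transcript coverage after amplification, was 2.81 to 3.56 on the knockout-labelled arrays and 2.57 to 3.16 on the wild-type arrays. Irgm1 itself read 7.68, 8.58 and 7.84 on the knockout-labelled arrays, against 8.39, 8.57 and 8.36 on the wild-type arrays (log2 difference -0.41, SE 0.25, adjusted p = 0.475). Which part of Irgm1 is deleted is not in the labels, and a probe set outside that part checks nothing, so the arrays are called knockout-labelled throughout. All 12 HSC markers with a probe set of a single symbol (among them Kit, Cd34, Procr, Abcg2, Gata2 and Mecom) were above the bacterial control probe sets on every array, with a lowest value of 5.23 (Slamf1). None was called, but 7 had an unadjusted p under 0.05, 1 of them higher (16.4% of all tested probe sets were under it). Of the 12, 10 had a negative difference, and the median was -0.35. On 5 of them the knockout-labelled arrays lay wholly below wild type and on 1 wholly above (11% and 11.5% of all tested probe sets). In bulk RNA, fewer cells of a type and less RNA per cell cannot be told apart.

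Dnmt1 rose on the knockout-labelled arrays, and it was the only member gene called. Of the 22 tested member probe sets 1 was called higher and 0 lower (4.55%), against a background of 1.39% of all tested probe sets, 0.664% higher and 0.722% lower. Counted by gene it was 1 of 9, where 2.3% of all tested genes had a called probe set. At an unadjusted p under 0.05 there were 9 member probe sets, 7 higher and 2 lower (16.4% of all tested probe sets were under it). The 7 higher ones were 3 of Dnmt1, 2 of Uhrf1, 1 of Uhrf2 and 1 of Tet1, and the 2 lower ones were 1 of Uhrf2 and 1 of Tet2. The 3 knockout-labelled arrays lay wholly above the wild-type arrays for 7 tested member probe sets (31.8%, against 11.5% of all tested) and wholly below for 4 (against a background of 11%). Several member probe sets belong to the same gene, so these counts do not stand for independent genes. The median difference of the tested member probe sets was -0.12, beside 0.01 for all tested probe sets.

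**Figure D1:**
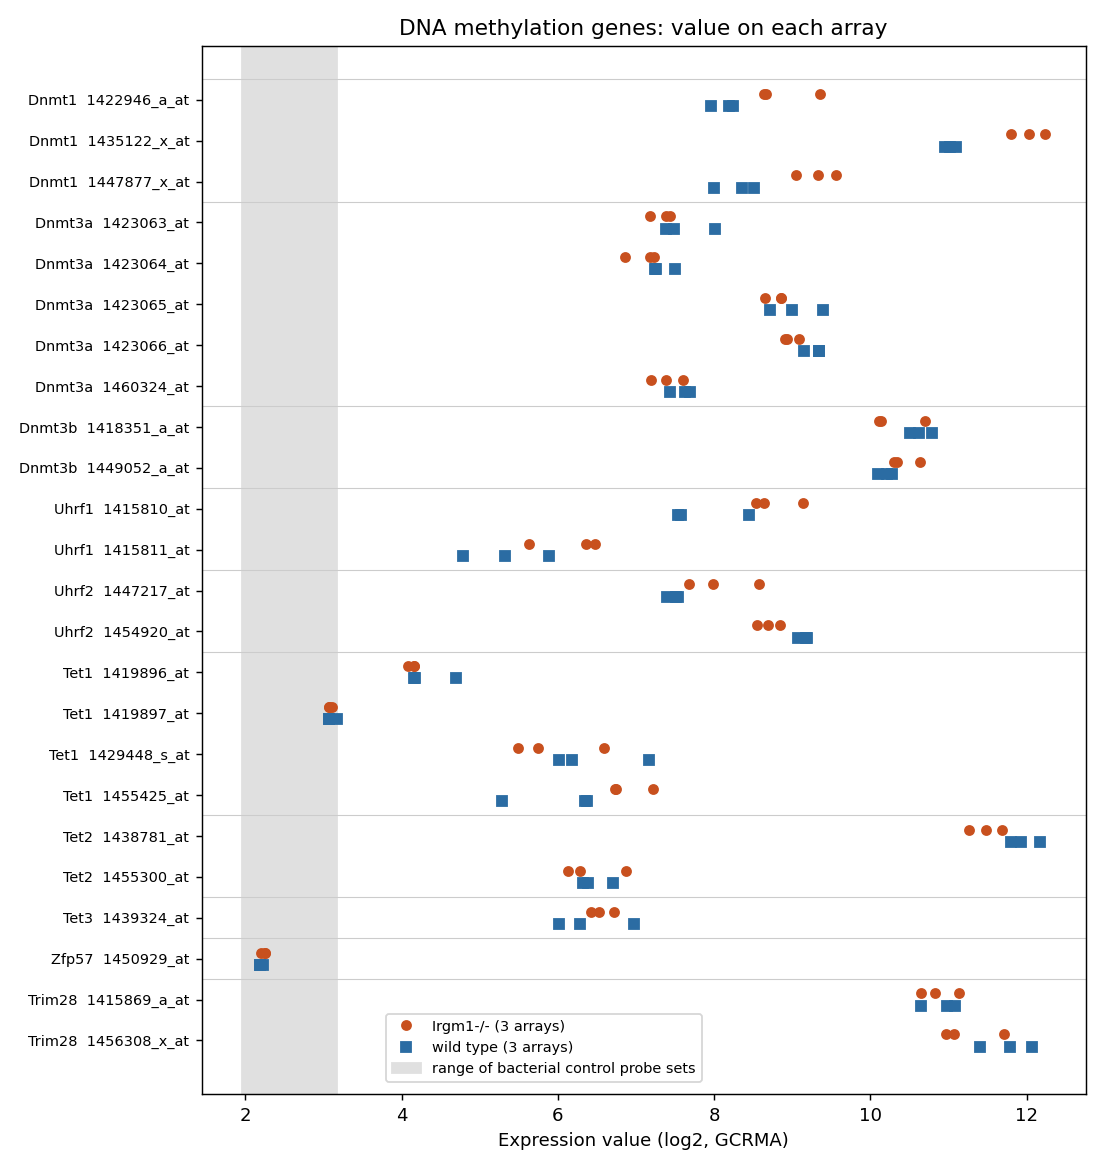
Expression value (log2, GCRMA) on each array for the 24 probe sets, with knockout-labelled arrays as circles above wild-type arrays as squares, and the range of the bacterial control probe sets shaded. The 3 Dnmt1 rows show circles wholly to the right of squares, and Zfp57 lies inside the shaded range in both groups.

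Dnmt1, the maintenance methyltransferase, is read by 3 probe sets, and all 3 gave higher values on every knockout-labelled array than on any wild-type array. The brightest, 1435122_x_at, read 12.03, 11.80 and 12.24 on the knockout-labelled arrays, against 10.96, 11.09 and 11.02 on the wild-type arrays. Its wild-type values lay within 0.13 of each other, and the lowest knockout-labelled value was 0.71 above the highest of them. Knockout-labelled arrays were higher by 0.998 on the log2 scale (SE 0.14, 95% interval 0.67 to 1.33, adjusted p = 0.0261). The probe set 1447877_x_at read 9.33, 9.05 and 9.56, against 8.00, 8.51 and 8.35 in wild type, with a difference of 1.03 (SE 0.21, adjusted p = 0.0681). The third, 1422946_a_at, read 8.63, 8.67 and 9.36, against 8.20, 8.24 and 7.96 in wild type, with a difference of 0.75 (SE 0.23, adjusted p = 0.182). The 3 sets thus gave differences of one sign, and their 95% intervals overlapped, although 1 of them alone was called. The suffix _x marks probe sets in which some probes can also bind other transcripts, whereas _a marks sets that read several transcripts of 1 gene. With the tested probe sets of each gene averaged before the fit, Dnmt1 was at 0.93 (adjusted p = 0.0319).

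The call of the Dnmt1 set 1435122_x_at depended on single arrays, while its difference stayed between 0.89 and 1.11. Leaving out knockout-labelled replicate 1 gave 0.99 (adjusted p = 0.11), and leaving out wild-type replicate 1 gave 0.97 (adjusted p = 0.109). Without wild-type replicate 2 it was 1.03 (adjusted p = 0.11), and without wild-type replicate 3 it was 0.997 (adjusted p = 0.0641). Without knockout-labelled replicate 2 it was 1.11 (adjusted p = 0.0433) and without knockout-labelled replicate 3 it was 0.89 (adjusted p = 0.0466), so it stayed past the threshold in these 2 fits. The set 1422946_a_at ranged more widely, from 0.52 without knockout-labelled replicate 3 to 0.88. When dim probe sets were kept in the test, the adjusted p of 1435122_x_at was 0.0602.

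Uhrf1, which guides DNMT1 to replicated DNA, had positive differences of 0.92 and 0.82 with a wider spread than Dnmt1, and neither of its probe sets was called. The set 1415810_at read 8.54, 8.64 and 9.14 on the knockout-labelled arrays, against 7.54, 7.57 and 8.45 in wild type (log2 difference 0.92, SE 0.29, 95% interval 0.23 to 1.60, adjusted p = 0.197). Its groups did not overlap, but wild-type replicate 3 lay 0.089 below the lowest knockout-labelled array. The dimmer set 1415811_at read 6.36, 6.47 and 5.63, against 5.32, 4.79 and 5.89 in wild type (log2 difference 0.82, SE 0.33, adjusted p = 0.286). Here knockout-labelled replicate 3 lay below wild-type replicate 3, although the same array was the highest of all on the other set. Without wild-type replicate 3 the first set was at 1.21 (adjusted p = 0.0922), over a range of 0.73 to 1.21 when each array was left out in turn.

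Promoter sequence was read for all 10 genes from RefSeq (GRCm38.p6), as the 250 bases before each annotated start, 17 windows in all. In 14 windows the count of CpG sites was above the median of all 32851 mouse windows, which was 6, and Tet2 had the most with 51. Zfp57 had 3, 6 and 7 in its 3 windows. The motif of E2F factors, which drive S phase genes, was searched as 4 variants (TTTCCCGC, TTTGGCGC, TTTCGCGC and TTTGCCGC) on both strands. It was found in 1 window each of Dnmt1 and Uhrf1 and in no window of the other 8 genes. Of all windows 1.86% held it, and of the genes on the S phase list 7 of 26 with a window did. The motif of the interferon-stimulated response element, searched on both strands, was in 0 of the 17 windows, against 2.98% of all. With probe sets averaged by gene, Dnmt1 and Uhrf1 had differences of 0.93 and 0.87, and a link of these to the motif was not tested. Both E2F matches found are shown with 11 bases on either side. They lie at chr9:20952824-20952853 (minus strand) and chr17:56304117-56304146 (plus strand), with the match in capitals, given in the direction of the gene.
Dnmt1: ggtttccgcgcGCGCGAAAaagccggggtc
Uhrf1: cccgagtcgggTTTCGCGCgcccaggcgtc
The same variant TTTCGCGC was matched in either gene, on the strand opposite to the gene in Dnmt1 and on the gene's strand in Uhrf1. The match began 219 bases before 1 of the 3 annotated starts of Dnmt1 and 185 bases before 1 of the 2 of Uhrf1. It lies downstream of the other annotated starts of either gene. Binding of any factor there was not measured.

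Uhrf2, the paralogue of Uhrf1, which in mice does not replace it in maintenance, gave opposite readings from its probe sets. The set 1454920_at read 8.55, 8.84 and 8.69 on the knockout-labelled arrays, against 9.18, 9.19 and 9.07 in wild type (log2 difference -0.45, SE 0.15, adjusted p = 0.209). The set 1447217_at read 8.57, 7.99 and 7.68, against 7.54, 7.51 and 7.39 in wild type (log2 difference 0.60, SE 0.24, adjusted p = 0.286). In either set the groups were separate, in opposite directions, and neither was called. Without knockout-labelled replicate 1, the highest array of 1447217_at, its difference was 0.35. A direction for Uhrf2 as a gene was therefore not obtained (mean of its sets 0.07, adjusted p = 0.847).

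**Figure D2:**
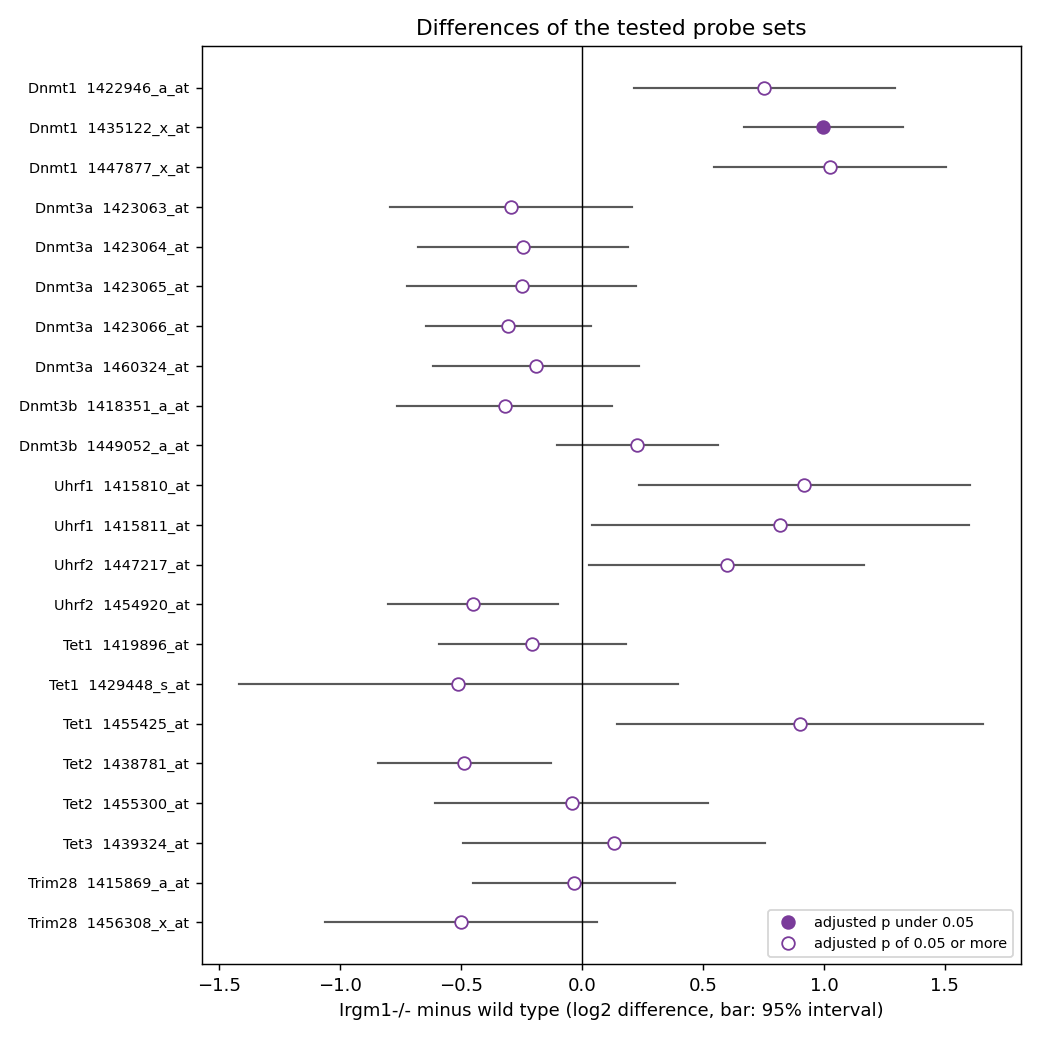
Log2 difference (knockout-labelled minus wild type) of each tested probe set with its 95% interval from the limma fit, the called set filled. Dnmt1 sets lie at 0.75 to 1.03 and the 5 Dnmt3a sets at -0.30 to -0.19, while the sets of Uhrf2, Dnmt3b and Tet1 fall on both sides of 0.

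No probe set of the de novo methyltransferases was called. All 5 probe sets of Dnmt3a had a negative difference, from -0.30 to -0.19 with adjusted p between 0.353 and 0.654. The set 1423066_at, which had the highest mean, read 8.94, 9.09 and 8.90 on the knockout-labelled arrays, against 9.35, 9.35 and 9.15 in wild type (log2 difference -0.30, SE 0.15, 95% interval -0.65 to 0.04). For 2 of the 5 sets the knockout-labelled arrays lay wholly below the wild-type arrays, and for the other 3 the groups overlapped. Without wild-type replicate 3 the set 1423063_at was at -0.10, against -0.29 with it, and without wild-type replicate 1 the set 1423065_at was at -0.071, against -0.25 with it.

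Dnmt3b was read by 2 probe sets that are both marked as covering several transcripts. The set 1418351_a_at read 10.11, 10.14 and 10.70 on the knockout-labelled arrays, against 10.79, 10.62 and 10.51 in wild type (log2 difference -0.32, SE 0.19, adjusted p = 0.456). The set 1449052_a_at read 10.63, 10.34 and 10.31, against 10.28, 10.10 and 10.21 in wild type (log2 difference 0.23, SE 0.14, adjusted p = 0.477). The first overlapped through knockout-labelled replicate 3, and the second was separate by 0.03 on the log2 scale. Without knockout-labelled replicate 3 the first was at -0.51, and without knockout-labelled replicate 1 the second was at 0.13. The mean of the sets was at -0.05 (adjusted p = 0.891).

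Among the TET enzymes none was called. Tet2, the family member most often mutated in human clonal haematopoiesis, read 11.48, 11.27 and 11.68 on the knockout-labelled arrays, against 12.16, 11.80 and 11.92 in wild type on its bright set 1438781_at. The groups were separate, and differed by -0.49 (SE 0.15, 95% interval -0.85 to -0.13, adjusted p = 0.192). The dim set 1455300_at of Tet2 overlapped (log2 difference -0.04, SE 0.24, adjusted p = 0.949).

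Tet1 had 3 tested probe sets, and they did not share a direction. The set 1455425_at read 7.22, 6.73 and 6.75 on the knockout-labelled arrays, against 5.28, 6.34 and 6.37 in wild type (log2 difference 0.90, SE 0.32, adjusted p = 0.241). The set 1429448_s_at, whose suffix marks probes shared by several transcripts, read 6.59, 5.74 and 5.49, against 6.18, 6.01 and 7.17 in wild type (log2 difference -0.51, SE 0.39, adjusted p = 0.561). The groups were separate on 1455425_at, where wild-type replicate 1 stood lowest, and overlapped on 1429448_s_at, where wild-type replicate 3 stood highest. Leaving out the array that stood apart gave 0.54 on 1455425_at and -0.15 on 1429448_s_at. The set 1419896_at lay at 4.08 to 4.16 on the knockout-labelled arrays and 4.16 to 4.69 in wild type. The set 1419897_at was not tested, since all its values lay under the array medians. It read 3.07 to 3.11 on the knockout-labelled arrays and 3.07 to 3.18 in wild type, within the bacterial control range. Tet3, with the single set 1439324_at, read 6.71, 6.42 and 6.53, against 6.97, 6.28 and 6.01 in wild type, and the knockout-labelled values lay inside the wild-type range (log2 difference 0.13, SE 0.27, 95% interval -0.49 to 0.75).

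Zfp57, the zinc finger protein that recognises methylated imprints in embryonic cells and the germ line, was not well above background on any array. Its single probe set read 2.26, 2.25 and 2.20 on the knockout-labelled arrays, against 2.18, 2.22 and 2.19 in wild type. The bacterial control probe sets ranged from 1.96 to 3.18, so no fold is given. The set was not tested, since all its values lay under the array medians. Its partner Trim28, a scaffold for heterochromatin proteins that most cells express, was bright on both of its sets and not called. The set 1415869_a_at read 10.65, 10.83 and 11.13 on the knockout-labelled arrays, against 10.98, 11.08 and 10.64 in wild type (log2 difference -0.03, SE 0.18, 95% interval -0.45 to 0.38, adjusted p = 0.945). The set 1456308_x_at read 11.07, 10.97 and 11.71, against 12.07, 11.40 and 11.79 in wild type (log2 difference -0.50, SE 0.24, 95% interval -1.06 to 0.06, adjusted p = 0.354). These intervals include 0 and leave room for a lower level on the second set.

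Genes that work with these enzymes were taken as lists. Of 61 tested genes from 5 such lists (73 listed), limma called 0, against 2.03% of all 10374 tested genes by the probe set with the highest mean (1.08% higher, 0.954% lower). At an unadjusted p under 0.05 there were 10, of which 8 were higher, a share close to the 16.4% of all tested probe sets. The median difference of the 61 genes was 0.08, beside 0.0032 for all tested genes. Among 16 tested partners of the methyltransferases, 12 had a positive difference and 0 passed (4 at an unadjusted p under 0.05). The smallest p belonged to Hells, the chromatin remodeller LSH that DNA methylation needs in mice, which read 9.50, 9.29 and 8.83 on the knockout-labelled arrays, against 7.76, 7.87 and 8.43 in wild type (log2 difference 1.19, SE 0.25, adjusted p = 0.0800). Next came Pclaf, the PCNA-associated factor through which UHRF1 can recruit DNMT1, at 1.09 (SE 0.27, adjusted p = 0.114). In these 2 genes the groups were separate, and wild-type replicate 3 was the highest wild-type array, as it was for Uhrf1. Pcna, the sliding clamp that binds DNMT1, was at -0.05 (SE 0.21, adjusted p = 0.936) and was named after its values were seen. Dnmt3l and Dppa3, which act with these enzymes in germ cells and early embryos, were not well above background on any array.

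Readers of methylated DNA had 8 tested genes, with 0 called and 2 at an unadjusted p under 0.05. The 2 were Mbd6 (log2 difference 0.46, adjusted p = 0.223) and Mbd3, a NuRD subunit (0.62, adjusted p = 0.258). Removal and repair of modified cytosine had 15 tested genes, 0 called and 1 at an unadjusted p under 0.05, the glycosylase Neil3 (1.18, SE 0.27, adjusted p = 0.0980). The next was Parp1, which binds DNA breaks (0.36, adjusted p = 0.314). Of 13 tested partners of Trim28 and imprint protection, 0 were called and 1 had an unadjusted p under 0.05, Chaf1b, a subunit of the chromatin assembly factor that works at replication forks (1.46, SE 0.47, adjusted p = 0.197). The heterochromatin protein gene Cbx1 followed at 0.41 (adjusted p = 0.335). Methyl donor supply had 9 tested genes, 0 called and 2 at an unadjusted p under 0.05, which were Mat2b, a regulatory subunit of methionine adenosyltransferase (-0.92, SE 0.27, adjusted p = 0.167), and Ahcy, which clears S-adenosylhomocysteine (0.44, SE 0.14, adjusted p = 0.193).

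**Figure D3:**
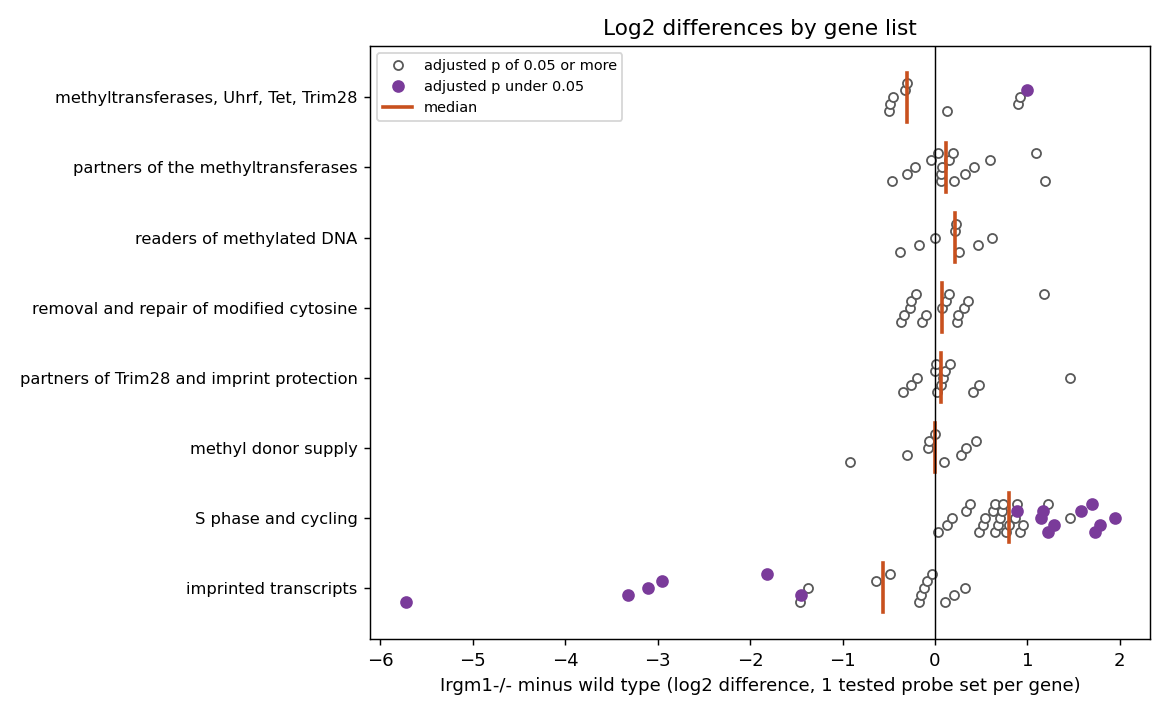
Log2 difference (knockout-labelled minus wild type) of each tested gene by its probe set with the highest mean, in rows by list, with called genes filled and list medians as bars. Called genes appear for Dnmt1, the S phase list (10 of 33, all higher) and the imprinted list (6 of 18, all lower, 3 of them tested only through their wild-type values). None appear in the 5 lists of partners, readers, removal, imprint protection and methyl donors. The lists were chosen with earlier results of these data known. Of all tested genes 1.08% were called higher and 0.954% lower.

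Dnmt1 and Uhrf1 are transcribed mainly in cycling cells, so S phase genes were set beside them. Of 33 tested S phase and cycling genes, 10 rose, 0 fell and 23 did not pass (30.3% called, against 2.03% of all tested genes), and their median difference was 0.80. The list was chosen with earlier results of these data known, so its share is no independent evidence. All 33 had a positive difference, and for 26 the groups did not overlap (22.6% of all tested probe sets did not). The smallest p belonged to cyclin A2 (Ccna2), Mki67, thymidine kinase Tk1 and Rrm2, at 1.95, 1.73, 1.70 and 1.79. The mean level over these 33 genes was 9.19, 9.12 and 9.12 on the knockout-labelled arrays, against 8.14, 8.19 and 8.39 in wild type. By the same measure, the probe set with the highest mean, Dnmt1 was at 0.998, above the median of this list and within its range of 0.03 to 1.95. The other Dnmt1 sets were at 1.03 and 0.75. The part of cycling cells in the Dnmt1 difference was not tested.

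The list of T and NK cell markers moved with the groups too. Marker lists were also chosen with earlier results of these data known, so their shares are no independent evidence. Of 14 such genes on the array 9 were tested and 5 rose (55.6%, against 2.03% of all tested genes), the smallest p belonging to the chemokine Ccl5 (4.93, SE 0.36, adjusted p = 0.00207). The summed level of the 14 genes, added on the unlogged scale and given in log2, was 13.32, 13.22 and 14.31 on the knockout-labelled arrays, against 9.83, 9.03 and 9.99 in wild type. Ccl5, the brightest of them on the knockout-labelled arrays, alone read 12.81, 12.77 and 13.52 there, against 8.69, 7.33 and 8.29 in wild type. The 4 tested genes that were not called were Nkg7 (2.61, adjusted p = 0.0532), Cd3e (0.77, adjusted p = 0.464), Cd28 (0.68, adjusted p = 0.433) and Cd247 (0.19, adjusted p = 0.829). All 9 tested genes had a positive difference, and 7 lay wholly above wild type (11.5% of all tested probe sets did). Zap70 was at or below the bacterial control maximum on all 6 arrays, and Cd3d, Cd3g and Cd5 on the 3 wild-type arrays. Replicate 3 of the knockout-labelled group had the highest sum and also the highest value on all 3 Dnmt1 sets. It also had the largest gap between 3' and 5' actin controls (3.56, beside 2.86 and 2.81 on the other knockout-labelled arrays). Without that array the Dnmt1 differences were 0.89 on 1435122_x_at, 0.90 on 1447877_x_at and 0.52 on 1422946_a_at. The part of these cell markers or of transcript coverage in them was not tested. Among the other marker lists, the smallest p belonged to Cd79b for B cells (log2 difference -0.42, adjusted p = 0.421), Ms4a6c for neutrophils and monocytes (1.53, adjusted p = 0.0313), Car2 for erythroid cells (-0.44, adjusted p = 0.197) and Col1a2 for stroma (-2.88, adjusted p = 0.00889). These genes do not stand for their lists. Of 6 tested neutrophil and monocyte markers 5 had a positive difference, and Cd14 was at -1.25 (adjusted p = 0.0518). Of 3 tested erythroid markers 2 were positive, Tfrc (0.25) and Epor (0.49). Kdr, the only other tested stromal or endothelial marker, was at 0.72, and Ms4a1, the only other tested B cell marker, at 0.06. Of 7 tested megakaryocyte markers 2 rose and 1 fell (42.9% called, against 2.03% of all tested genes), with a median difference of 1.003. Of the 7, 5 lay wholly above wild type and 1 wholly below (11.5% and 11% of all tested probe sets did). The smallest p among the 7 belonged to the marker that fell, Mmrn1 (-2.03, adjusted p = 0.0122). Those that rose were Selp (1.90, adjusted p = 0.0135) and Gp1bb (1.44, adjusted p = 0.0290). Gp1bb was tested only through its knockout-labelled values, and the counts and median of this list include it, so they are not read as a result.

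**Figure D4:**
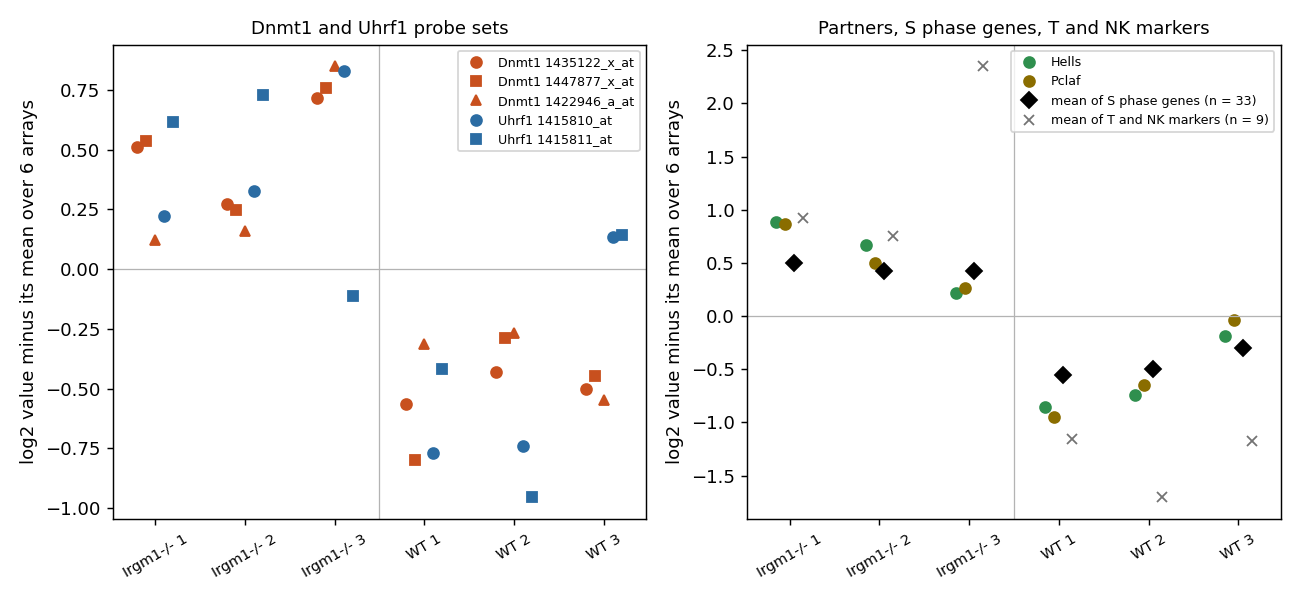
Log2 value minus its own mean over the 6 arrays, with knockout-labelled arrays left of wild-type arrays, for the Dnmt1 and Uhrf1 probe sets (left) and for Hells, Pclaf and the means of 33 S phase genes and 9 T and NK cell markers (right). Before centring, the S phase mean is 9.19, 9.12 and 9.12 on the knockout-labelled arrays, and the T and NK mean 7.69, 7.53 and 9.12. All 3 Dnmt1 sets and the Uhrf1 set 1415810_at are highest on knockout-labelled replicate 3. The Uhrf1 set 1415811_at has its lowest knockout-labelled value there. The part of cycling cells or of T and NK cells in these differences was not tested.

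Likeness of pattern was measured as the root mean square distance between profiles over the 6 arrays, each centred on its own mean, among 10374 tested genes. Dnmt1 stood here by its brightest set 1435122_x_at alone. The 3 genes nearest to it were Cd69, an early activation antigen of lymphocytes (distance 0.09), Endod1 (0.10) and Scarb1, a lipoprotein receptor (0.11), where the median over all genes was 0.56. Cd69 read 7.33, 7.31 and 7.55 on the knockout-labelled arrays, against 6.42, 6.41 and 6.31 in wild type, and it was called (log2 difference 1.02, adjusted p = 0.0393). It was picked for likeness to the called Dnmt1 set on these same arrays, so its difference is no separate evidence.

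Imprinted transcripts, whose control regions Zfp57 and Trim28 protect, were counted beside them. Of 18 tested (34 listed), 6 were called lower and 0 higher, where 0.954% of all tested genes were lower and 1.08% higher. Of the 6, Rian, Peg3 and Igf2 entered the test only through their wild-type values, since all their knockout-labelled values lay under the array medians, so their calls are not read as a count. The other 3 (Meg3, Ndn and Airn) were above the median in both groups on at least 1 array, and they fell. The list was drawn up knowing that several of these fell, so it is not independent evidence of a direction. The smallest p belonged to Rian, Meg3, Ndn and Peg3. Rian read 2.47, 2.59 and 2.38 on the knockout-labelled arrays, inside the bacterial control range, against 5.42, 6.00 and 5.97 in wild type. Meg3 read 4.41, 4.93 and 5.84, against 10.85, 10.77 and 10.73 in wild type (log2 difference -5.73, adjusted p = 0.000914). Ndn read 7.88, 8.64 and 8.45, against 11.23, 11.70 and 10.89 in wild type (log2 difference -2.95, adjusted p = 0.00533). These groups lay far apart, and Ndn and Meg3 stayed above the control range on the knockout-labelled arrays. Peg3 read 2.81, 2.92 and 3.06, inside the control range, against 6.17, 6.88 and 5.05 in wild type. On these same arrays Zfp57 was not well above background in either group, and Trim28 was not called. Methylation itself was not measured, and expression of these genes does not give it.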

How the data were processed

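Expression was measured on 6 Affymetrix arrays, 3 per group. The authors deposited log2 values, for which the submitters' processing notes name GCRMA; their range shows the log2 scale. GCRMA settings were not given in the labels, and scanner files were not used here. Symbols came from the platform table and were updated through gene identifiers of RefSeq (34754 of 34958 probe sets with 1 symbol matched).

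The comparison used limma 3.58.1 under R 4.3.3 (lmFit, then eBayes with an intensity trend, 2-sided, Benjamini-Hochberg over 22580 probe sets), and was tested on simulated data. In lists, each gene stood for its brightest tested probe set. Named genes were all members, the 2 with the smallest p of each partner list, the 4 of the S phase and imprinted lists, the first of each marker list and the 3 nearest profiles. Members and lists were chosen with earlier results of these data known. Alternatives varied filter, normalisation, variance model, array weights, replicate block, threshold and arrays. The number of arrays limits precision.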

Additional observations from a re-analysis of the deposited data

How the results depend on the processing

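Over 15 alternatives that refit each probe set, 324 differences of member probe sets were recomputed, of which 310 kept both direction and side of the threshold; causes of the other changes were not tested. The called Dnmt1 set stayed between 0.89 and 1.11 (adjusted p 0.00929 to 0.111, the highest with the replicate block). The median member difference was -0.038 with no filter and -0.22 with the filter at the 70th percentile, and -0.22 to -0.052 when arrays were left out in turn. Called member genes numbered 0 with no filter and 0 with the replicate block, and 0 to 1 with arrays left out. Called member probe sets numbered 0 with no filter, 0 with the replicate block, 2 with the 70th percentile filter, 2 at an adjusted p under 0.1, and 0 to 1 with arrays left out. Pathway genes called numbered 1 (Hells) with the 70th percentile filter and 3 (Hells, Pclaf, Neil3) with array weights. All called probe sets, 313 in the reported fit, numbered 103 with no filter, 126 at the 25th percentile, 864 with array weights, 68 with the replicate block and 45 to 267 with arrays left out. Same-numbered arrays did not deviate together (r -0.28 to -0.02), so the replicate block is no pairing. Leaving out arrays turned the sign of Tet2 1455300_at (-0.26 to 0.11), Tet3 1439324_at (-0.072 to 0.41) and Trim28 1415869_a_at (-0.17 to 0.078), none of them called. Background correction was not varied, since that needs scanner files.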
